A study of Rattus norvegicus with 12 samples.

Results

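The interferon response genes were 46 named rat genes chosen by name from 6 roles: sensors of foreign or misplaced nucleic acid and their adaptors, transcription factors, interferon receptor chains, antiviral effectors, genes of the ubiquitin, ISG15 and ADP-ribose systems, and genes of antigen presentation. Of these names, 44 were found among the 16002 gene IDs of the count table. Rigi, which encodes a sensor of viral RNA, was not found under that name, and Tmem173 is an older name of Sting1, which was found. After genes with few reads were removed, 39 of the 44 stood among the 11398 genes tested.

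Their RNA was measured in H9C2 cells, an established line of myoblasts derived from embryonic rat heart, by sequencing of polyadenylated RNA in 12 libraries. The LITAF libraries (n = 4) came from cells given a lentiviral vector for overexpression of LITAF, a membrane protein of endosomes and lysosomes, and then kept at 1% oxygen for 8 h and at normal oxygen for 2 h (hypoxia and reoxygenation, H/R). The H/R libraries (n = 4) came from cells given an empty lentiviral vector and the same H/R. The control libraries (n = 4) came from wild-type cells kept at normal oxygen with no vector. The study asked what LITAF overexpression changes in cells that go through H/R, which the LITAF and H/R libraries address. A comparison with control joins the vector, the hypoxia and the reoxygenation, and these cannot be told apart.

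Cells detect viral nucleic acid with cytosolic sensors, among them the RNA sensor encoded by Ifih1 and the DNA sensor encoded by Cgas, which signal through the adaptors Mavs and Sting1 to the transcription factors Irf3 and Irf7. The interferons made in response bind receptors that activate the kinases Jak1 and Tyk2, and these phosphorylate STAT proteins such as Stat2, which join Irf9 and bind the interferon-stimulated response element (ISRE) in promoters. The genes switched on in this way block viral replication, modify proteins with the ubiquitin-like protein ISG15 and raise antigen presentation, and many are expressed at a low level without infection.

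Levels are given as CPM, counts per M reads after scaling of the libraries, and differences as log2 fold changes ± SE. A gene is said to have risen or fallen only where edgeR's quasi-likelihood test gave a Benjamini-Hochberg adjusted p below 0.05 over all genes tested. Total counts were 17.2 to 18.4 M in the LITAF libraries, 16.9 to 18.1 M in the H/R libraries and 19.2 to 20.7 M in the control libraries. Litaf itself had 2691, 2008, 2532 and 2120 CPM in the LITAF libraries, 549, 619, 573 and 598 CPM in the H/R libraries and 458, 485, 491 and 456 CPM in the control libraries, a log2 difference of 2.00 ± 0.10 between the LITAF and H/R libraries (adjusted p = 1.38e-08), and no LITAF library overlapped with another group. In bulk RNA, fewer cells of a type and less RNA per cell cannot be told apart.

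Of the 39 interferon response genes tested, 21 fell in the H/R libraries against control, beside 31.8% of all genes tested, and 9 rose, beside 31.8%. Those that fell include 8 of 13 antiviral effectors and 8 of 9 genes of the ubiquitin, ISG15 and ADP-ribose systems. The 21 include 4 genes that passed the filter on low counts only through their control libraries, so a fall was built into their entry. Of the other 35 genes, 17 fell. Those that rose include 2 of 3 receptor chains and 3 of 3 antigen presentation genes. Ifit1 was 14.2-fold lower, Oas1a 8.91-fold lower (11.7-fold without control library 2, which was set apart in part by this gene) and Parp14 2.88-fold lower, and Tap2 was 2.89-fold higher. Between the LITAF and H/R libraries, none of the 39 passed the test in either direction, against 3.73% of all genes that rose and 1.15% that fell.

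Where RefSeq gave a promoter, the binding motif of the interferon pathway stood in many of them. RefSeq promoter sequences of the rat assembly GRCr8 (250 bases before to 50 after the gene start, 300 bases in all) were matched by name for 34 of the 44 genes. No entry was used for Dhx58, Cgas, Nlrc5, Ifit1, Ifit2, Mx2, Samd9l, Adar, Isg15 and Usp18. The core of the ISRE, GAAANNGAAA or its reverse complement TTTCNNTTTC on either strand, stood in 19 of the 34 promoters (55.9%), against 1312 of all 33469 promoters (3.92%). The element bound by STAT dimers, TTCNNNGAA, which is its own reverse complement, stood in 6 of the 34 (17.6%), against 2970 of all promoters (8.87%). A match is a match of letters and not evidence of binding.

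The ISRE matches lay from 150 bases before the gene start, in B2m, to 27 bases after it, in Ifi44. They are printed for genes of both directions, since the core occurred in promoters of genes that fell and of genes that rose. Each stretch reads 5′ to 3′ on the gene's strand, in lower case with the ISRE core in capitals and 15 bases on either side. Positions count from 1 at the gene start, and the bases before it are negative. Among genes that fell in the H/R libraries, Oas1a (chr12:41330410-41330455, plus strand), Bst2 (chr16:18255068-18255113, minus strand) and Trim21 (chr1:166399359-166399404, minus strand) had a pair of overlapping matches.
Oas1a: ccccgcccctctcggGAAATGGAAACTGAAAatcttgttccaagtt
Bst2: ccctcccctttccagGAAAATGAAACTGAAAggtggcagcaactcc
Trim21: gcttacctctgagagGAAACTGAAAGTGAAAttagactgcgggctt
Single matches stood in Ifih1 (chr3:67684003-67684042, minus strand), Parp14 (chr11:78408043-78408082, plus strand), Eif2ak2 (chr6:21941123-21941162, plus strand) and Irf7 (chr1:205800068-205800107, minus strand), which also fell.
Ifih1: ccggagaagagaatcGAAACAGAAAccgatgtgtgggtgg
Parp14: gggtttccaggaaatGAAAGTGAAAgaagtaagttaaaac
Eif2ak2: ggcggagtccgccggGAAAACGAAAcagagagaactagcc
Irf7: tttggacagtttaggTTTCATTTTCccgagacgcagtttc
The genes that rose and held a match included Tap2 (chr20:4652313-4652352, minus strand), B2m (chr3:129549165-129549204, plus strand) and Isg20 (chr1:142239952-142239991, plus strand).
Tap2: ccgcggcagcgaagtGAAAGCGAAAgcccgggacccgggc
B2m: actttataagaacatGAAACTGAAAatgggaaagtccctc
Isg20: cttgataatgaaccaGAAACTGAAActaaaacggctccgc
The matches of Irf7 and Parp12 read TTTCNNTTTC, so there the core lies on the opposite strand, as it does in Tap1.

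By direction in H/R against control, the ISRE core stood in 10 of the 14 promoters of genes that fell, in 4 of the 8 of genes that rose, in 2 of the 7 of genes that did not pass the test and in 3 of the 5 of genes not tested. The promoters of Parp9, Trim25, Oasl and Irf1, which fell, held no match in this window, nor did those of Ifngr1, Ifnar2, Irf9 and Mavs, which rose.

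**Figure D1:**
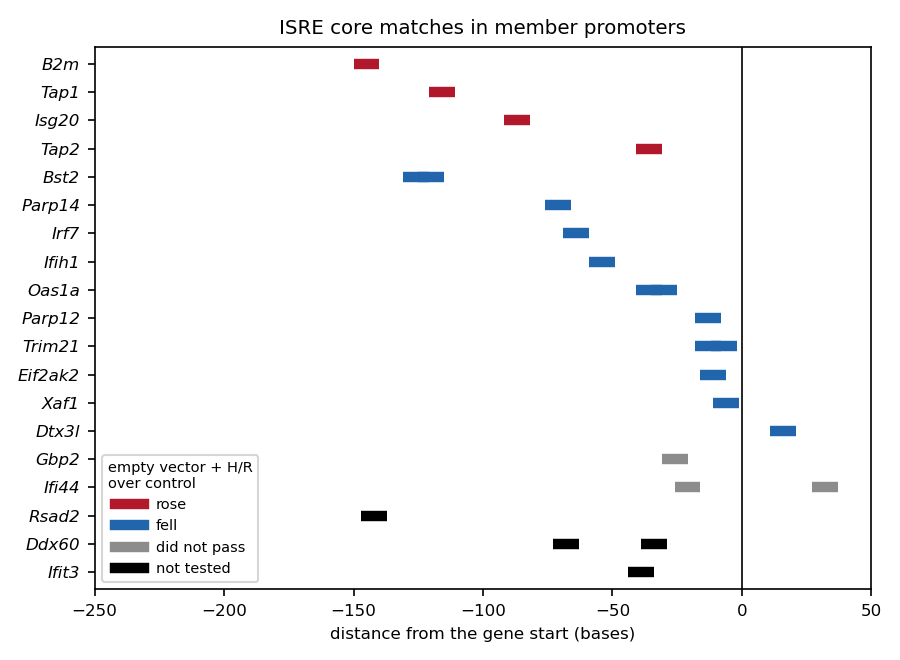
ISRE core matches in the promoters of the 19 interferon response genes that held one. Each bar spans a match by its distance in bases from the gene start (x axis), and the colour gives the direction in H/R against control. The 4 genes that rose have their match between 150 and 41 bases before the start, and the 10 genes that fell have theirs between 131 bases before and 11 after it.

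One control library stood apart and touches several of these genes. Among 10836 genes with a mean of at least 1 CPM in the control libraries, control library 2 was below 25% of every other control library in 55 genes (0.508%), against 1, 2 and 9 genes for libraries 1, 3 and 4. The 55 include Oas1a, Mx1, Rsad2, Ifit3 and Dhx58, 5 of the 41 interferon response genes considered. In control library 2 these genes were at the level of the H/R libraries or below it, while Ifit1, Ifih1 and Parp14 were at the level of the other control libraries. Ifi27l2a, an interferon-inducible gene outside the list that was chosen after its values were seen, had 17.9, 18.7, 16.7 and 18 CPM in the LITAF libraries, 12.4, 14.9, 14.7 and 14.3 CPM in the H/R libraries and 173, 6.72, 163 and 154 CPM in the control libraries. Results that rest on this library are given with and without it. The 5 genes are among those that set the library apart, so a larger difference without it was built in for them.

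**Figure D2:**
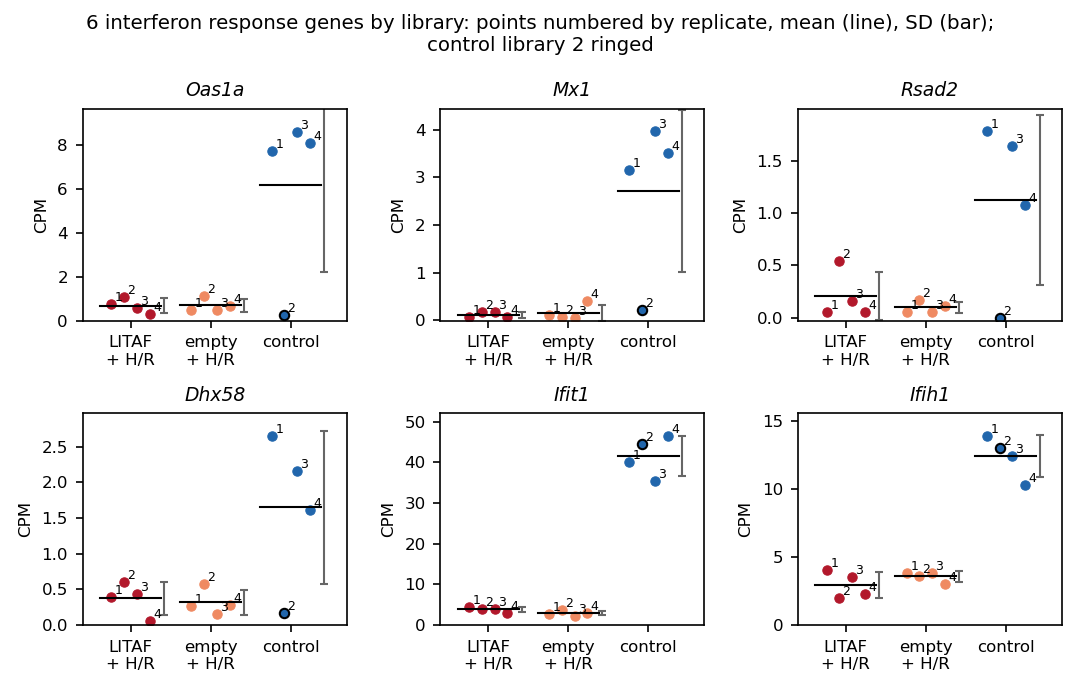
CPM (y axis) of 6 interferon response genes in the LITAF, H/R and control libraries, with points numbered by replicate, the group mean as a line and the SD as a bar. Control library 2, ringed, lies among the H/R libraries for Mx1 and Dhx58, below all of them for Oas1a and Rsad2, and among the control libraries for Ifit1 and Ifih1.

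The comparison of H/R with control asks how these genes stand in cells that received the empty vector and H/R. Of 39 genes, 21 fell (53.8%), against 31.8% of all genes tested, and 9 rose (23.1%), against 31.8% of all genes. Their median log2 difference was -0.56, against 0.01 over all genes. In 17 genes every H/R library was below every control library, against 28.3% of all genes, and in 8 every one was above, against 30.2%. Dhx58, Nlrc5, Oasl and Isg15 passed the filter on low counts only through their control libraries, so a fall was built into their entry. The median includes all 4 of them, and the 17 genes below every control library include Nlrc5, Oasl and Isg15. Of the 35 remaining genes, 17 fell, against 31.8% of all genes tested. Without control library 2, 21 of the same 39 fell and 12 rose, against 31.8% of all genes in each direction with all libraries.

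**Figure D3:**
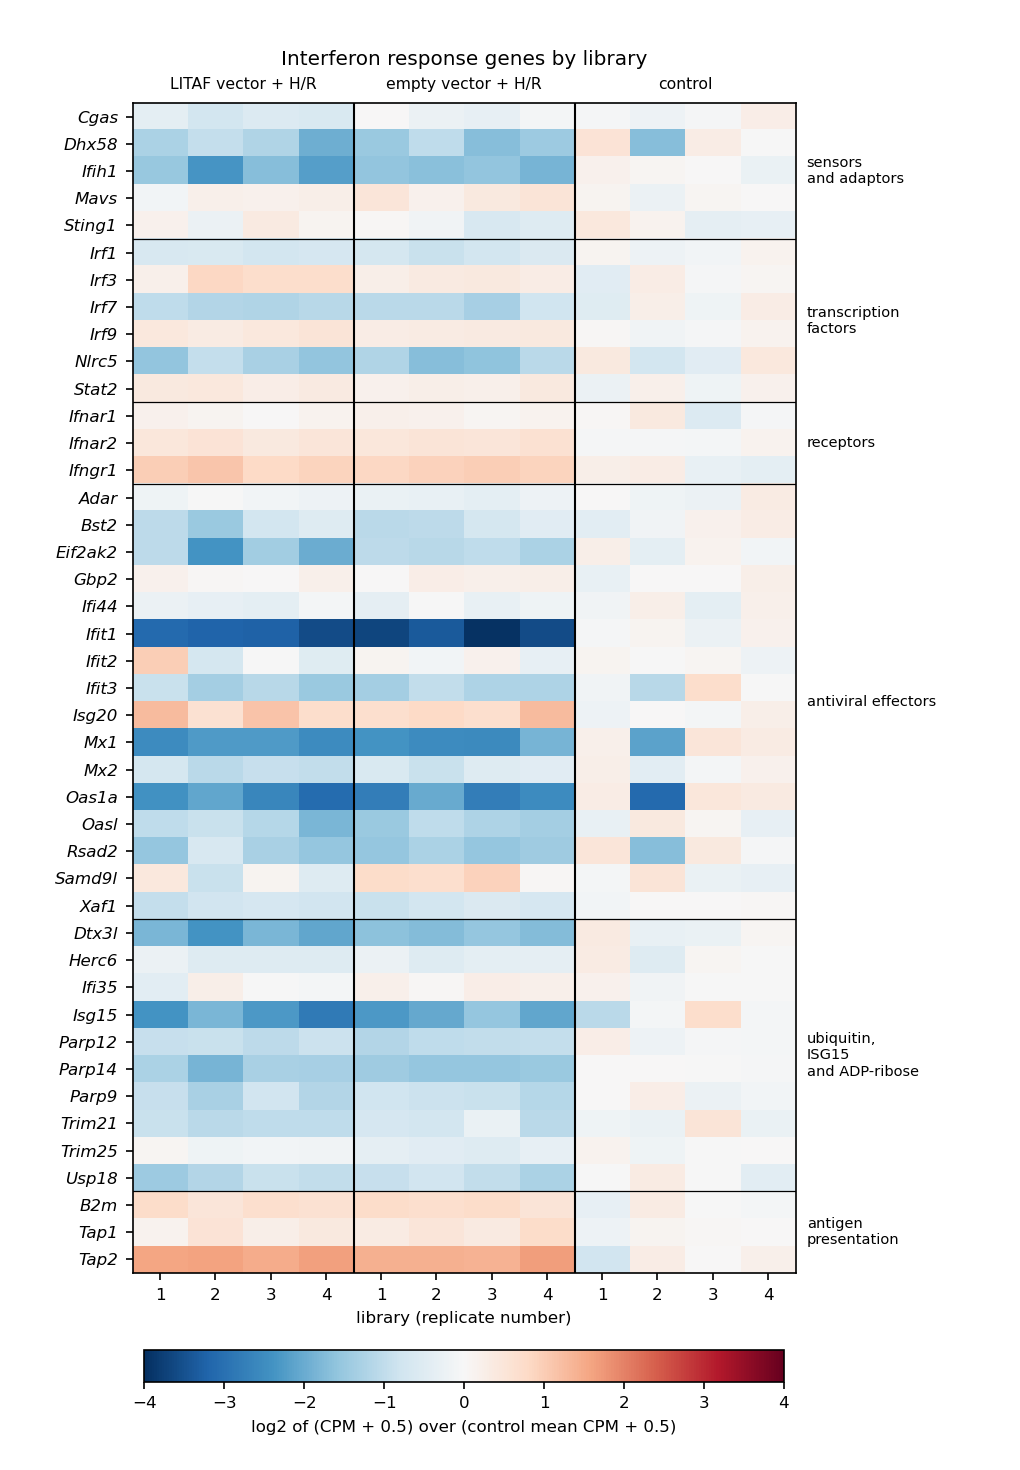
Level of each interferon response gene with a count above 0 in each of the 12 libraries, as log2 of CPM + 0.5 over the control mean CPM + 0.5 (colour), grouped by role from top to bottom. Blue runs across the 8 LITAF and H/R libraries for Ifit1, Mx1, Oas1a, Isg15, Dtx3l and Ifih1, and red for Tap2, B2m, Isg20 and Ifngr1.

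Of the 13 antiviral effectors tested, 8 fell, beside 31.8% of all genes, and 2 rose, beside 31.8%. The 8 include Oasl, which passed the filter only through control, and Adar. Ifit1, which binds viral RNA that lacks the host's cap methylation, had 4.38, 4.04, 3.93 and 3.05 CPM in the LITAF libraries, 2.82, 3.59, 2.24 and 3.03 CPM in the H/R libraries and 40.0, 44.5, 35.4 and 46.5 CPM in the control libraries. The LITAF and H/R libraries all lay far below the control libraries. Between H/R and control the log2 difference was -3.83 ± 0.16 (adjusted p = 1.07e-11). Oas1a, an oligoadenylate synthetase that responds to double-stranded RNA, had 0.739, 1.09, 0.592 and 0.288 CPM in the LITAF libraries, 0.479, 1.14, 0.480 and 0.673 CPM in the H/R libraries and 7.7, 0.278, 8.59 and 8.09 CPM in the control libraries. Its control libraries 1, 3 and 4 were above all the others, and control library 2 was the lowest of the 12. The log2 difference was -3.15 ± 0.63 (adjusted p = 0.000390), and a log2 difference of -3.55 ± 0.29 (adjusted p = 1.04e-07) without control library 2. Oasl, a relative of Oas1a, had 0.568, 0.655, 0.484 and 0.115 CPM in the LITAF libraries, 0.266, 0.570, 0.427 and 0.337 CPM in the H/R libraries and 1.27, 2.33, 1.8 and 1.24 CPM in the control libraries, with no overlap between control and the other groups and a log2 difference of -2.04 ± 0.38 for H/R against control (adjusted p = 0.000174).

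Eif2ak2, the kinase PKR that halts translation on sensing double-stranded RNA, had 81, 31.8, 63.4 and 41.8 CPM in the LITAF libraries, 81.2, 77.4, 82 and 69.3 CPM in the H/R libraries and 199, 129, 186 and 157 CPM in the control libraries. Every H/R library was below every control library, a log2 difference of -1.11 ± 0.22 (adjusted p = 0.000317). Bst2 (tetherin), which holds budding virus at the cell surface, fell by 0.99 ± 0.28 on the log2 scale, Xaf1, a pro-apoptotic gene, by 0.88 ± 0.18, and Mx2, a dynamin-like GTPase, by 0.74 ± 0.22. Adar, which edits double-stranded RNA, fell by 0.29 ± 0.12 (adjusted p = 0.0455). The call for Adar was lost with other library scaling, with no filter, in a fit of these 2 groups alone and when any of control libraries 1 and 4, H/R libraries 1 to 4 or LITAF libraries 1, 3 and 4 was left out, with an adjusted p of 0.0186 to 0.25 over 19 alternatives. In the opposite direction, Isg20, an exonuclease that degrades viral RNA, averaged 6.61 ± 1.61 CPM in the LITAF libraries, 6.18 ± 1.4 CPM in the H/R libraries and 3.16 ± 0.486 CPM in the control libraries (SD, n = 4 each) and had a log2 difference of 0.97 ± 0.20 (adjusted p = 0.000582). Samd9l, an inhibitor of translation and growth, rose by 0.66 ± 0.27 on the log2 scale (adjusted p = 0.0421). That call was lost with no filter on low counts and when any of control libraries 1, 3 and 4 or H/R libraries 1, 2 and 3 was left out, with an adjusted p of 0.00382 to 0.123 over 19 alternatives. Ifit2, Ifi44 and Gbp2 did not pass the test, with log2 differences of -0.04, -0.23 and 0.19.

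Mx1, Rsad2, Ifit3, Herc6 and Ddx60 were too low to be tested after the filter. Mx1, a GTPase that traps viral nucleocapsids, had 1, 3, 3 and 1 counts in the LITAF libraries, 2, 1, 1 and 7 in the H/R libraries and 62, 4, 77 and 65 in the control libraries. Rsad2 (viperin), which makes a chain-terminating nucleotide, had 1, 10, 3 and 1 counts in the LITAF libraries, 1, 3, 1 and 2 in the H/R libraries and 35, 0, 32 and 20 in the control libraries. Both were highest in control libraries 1, 3 and 4. Control library 2 lay among the other groups for Mx1 and below all of their libraries for Rsad2. In a fit with no filter, the log2 difference of H/R over control was -4.10 ± 0.74 for Mx1 (adjusted p = 0.000297), -3.46 ± 0.91 for Rsad2 (adjusted p = 0.00454) and -2.51 ± 0.58 for Ifit3 (adjusted p = 0.000796). Herc6, a ligase of the HERC family, was at -1.89 ± 0.91 and did not pass (adjusted p = 0.0941). Without control library 2, Mx1 passed the filter with a log2 difference of -4.49 ± 0.39 (adjusted p = 1.84e-07), Rsad2 with a log2 difference of -3.88 ± 0.55 (adjusted p = 2.73e-05) and Ifit3 with a log2 difference of -2.85 ± 0.46 (adjusted p = 8.77e-05). Mx1, Rsad2 and Ifit3 then passed only through control libraries 1, 3 and 4, so a fall was built into their entry. Ddx60, an RNA helicase, had no count in any library, and 3 counts in a library correspond to 0.153 to 0.173 CPM.

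Of the 9 genes tested of the ubiquitin, ISG15 and ADP-ribose systems, 8 fell, beside 31.8% of all genes, and none rose. Isg15, the ubiquitin-like modifier itself and 1 of the genes that passed the filter only through control, had 0.171, 0.492, 0.215 and 0 CPM in the LITAF libraries, 0.213, 0.342, 0.693 and 0.337 CPM in the H/R libraries and 1.17, 2.83, 5.2 and 2.86 CPM in the control libraries. All 4 control libraries were above the other 8. The log2 difference was -2.90 ± 0.50 for H/R against control (adjusted p = 9.58e-05). For LITAF against control it was -3.72 ± 0.56, or 13.2-fold lower, and -4.47, or 22.1-fold lower, without LITAF library 2. Usp18, the protease that removes ISG15, had 0.853, 1.15, 1.51 and 1.38 CPM in the LITAF libraries, 1.49, 1.71, 1.39 and 1.07 CPM in the H/R libraries and 3.21, 4.22, 3.19 and 2.32 CPM in the control libraries, again without overlap, and a log2 difference of -1.19 ± 0.23 (adjusted p = 0.000321).

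Dtx3l, an E3 ubiquitin ligase that works as a complex with Parp9, had 11.1, 7.43, 11.2 and 9.16 CPM in the LITAF libraries, 12.7, 11.9, 13.6 and 11.9 CPM in the H/R libraries and 52.3, 33.2, 33.9 and 43.4 CPM in the control libraries. Parp14, an ADP-ribosyltransferase, had 19, 12.5, 18.6 and 18.4 CPM in the LITAF libraries, 17.2, 15.7, 15.7 and 16.3 CPM in the H/R libraries and 47.2, 47.5, 46.6 and 45.6 CPM in the control libraries. Parp12, an ADP-ribosyltransferase with RNA-binding zinc fingers, had 21.5, 22.2, 19.7 and 22.5 CPM in the LITAF libraries, 18.3, 20.1, 20.7 and 21 CPM in the H/R libraries and 49.9, 36.1, 40.3 and 38.9 CPM in the control libraries. In all of these the H/R libraries lay below every control library, with log2 differences of -1.70 ± 0.16, -1.53 ± 0.12 and -1.05 ± 0.11, and adjusted p of 1.32e-07, 2.15e-08 and 6.74e-07. Parp9 fell by 0.93 ± 0.14 on the log2 scale, Trim21, a cytosolic antibody receptor and ubiquitin ligase, by 0.73 ± 0.22, and Trim25, the ligase that activates RNA sensing, by 0.42 ± 0.10. Ifi35 had a log2 difference of 0.20 ± 0.16 and did not pass. Parp9 and Dtx3l are neighbouring genes in RefSeq. In the H/R libraries their deposited counts were not whole, for example 366.65 and 239.35 in library 1, and summed to the whole numbers 606, 537, 593 and 480. In the LITAF and control libraries both were whole, so the split between the pair is uncertain in the H/R libraries. Their summed counts were 504, 382, 580 and 417 in the LITAF libraries and 1704, 1339, 1217 and 1390 in the control libraries, so the sum had the same order.

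Among sensors and adaptors, Ifih1, the receptor of long double-stranded RNA, had 4.04, 2.02, 3.5 and 2.3 CPM in the LITAF libraries, 3.83, 3.59, 3.84 and 3.03 CPM in the H/R libraries and 13.9, 13, 12.5 and 10.3 CPM in the control libraries. The groups with a vector did not overlap with control, and the log2 difference of H/R over control was -1.79 ± 0.19 (adjusted p = 4.34e-07). Dhx58, a regulator of that receptor, had 0.398, 0.601, 0.430 and 0.0576 CPM in the LITAF libraries, 0.266, 0.570, 0.160 and 0.280 CPM in the H/R libraries and 2.65, 0.167, 2.16 and 1.62 CPM in the control libraries. Control libraries 1, 3 and 4 were above the rest, and control library 2 was not. Dhx58 passed the filter on low counts only through its control libraries, so a fall was built into its entry. Its log2 difference was -2.37 ± 0.61 (adjusted p = 0.00296) and a log2 difference of -2.73 ± 0.42 (adjusted p = 4.94e-05) without control library 2. With the replicate number as a block in a fit of these 2 groups alone, it was no longer called (adjusted p = 0.0766, and 4.94e-05 to 0.0766 over 19 alternatives). Mavs, the mitochondrial adaptor, rose by 0.41 ± 0.13 (adjusted p = 0.00912). Cgas and Sting1 had log2 differences of -0.15 ± 0.13 and -0.56 ± 0.43 and did not pass.

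The transcription factors moved both ways. Irf7, the factor that amplifies interferon transcription, had 8.3, 7.37, 7.15 and 7.72 CPM in the LITAF libraries, 7.93, 7.87, 6.56 and 9.76 CPM in the H/R libraries and 12.2, 20.2, 15.3 and 21 CPM in the control libraries. Nlrc5, the activator of MHC class I genes, had 0.171, 0.546, 0.323 and 0.173 CPM in the LITAF libraries, 0.373, 0.114, 0.160 and 0.449 CPM in the H/R libraries and 2.14, 0.722, 0.978 and 2.21 CPM in the control libraries. For both, no H/R or LITAF library reached a control library. Nlrc5 passed the filter on low counts only through its control libraries, so a fall was built into its entry. The log2 differences of H/R over control were -1.10 ± 0.17 for Irf7 (adjusted p = 3.06e-05) and -2.44 ± 0.48 for Nlrc5 (adjusted p = 0.000325). Irf1, which is induced by interferon gamma, fell by 0.73 ± 0.11. Irf9, the DNA-binding part of the complex with the STATs, rose by 0.37 ± 0.11 (adjusted p = 0.00812). Its partner Stat2 had 0.25 ± 0.11 (adjusted p = 0.0603) and Irf3, which the sensors activate, 0.33 ± 0.15 (adjusted p = 0.0715). With the replicate number as a block, both were called as higher, with adjusted p of 0.0403 for Stat2 and 0.0141 for Irf3. Over 19 alternatives the adjusted p ran from 0.00715 to 0.168 for Stat2 and from 0.0141 to 0.222 for Irf3.

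None of the 3 receptor chains and 3 antigen presentation genes fell, beside 31.8% of all genes tested. Of these small groups, 2 of 3 receptor chains and 3 of 3 antigen presentation genes rose, beside 31.8% of all genes. Ifngr1, the ligand-binding chain of the receptor for interferon gamma, averaged 34 ± 3.42 CPM in the LITAF libraries, 33.3 ± 1.41 CPM in the H/R libraries and 17.4 ± 4.4 CPM in the control libraries (SD, n = 4 each). It rose by 0.93 ± 0.15 on the log2 scale (adjusted p = 4.52e-05). Ifnar2, the chain that binds type I interferon most tightly, rose by 0.51 ± 0.09 (adjusted p = 0.000142), and its partner Ifnar1 had 0.14 ± 0.14 and did not pass. Tap2, a subunit of the transporter that carries peptides to MHC class I, had 29.5, 30.4, 27.7 and 30.6 CPM in the LITAF libraries, 26.5, 26.1, 25.9 and 31.6 CPM in the H/R libraries and 5.45, 11.8, 9.73 and 11.1 CPM in the control libraries. Every LITAF and H/R library was above every control library, with a log2 difference of 1.53 ± 0.18 for H/R (adjusted p = 1.26e-06). Its partner Tap1 rose by 0.49 ± 0.13 (adjusted p = 0.00271) and B2m, the invariant chain of MHC class I, by 0.67 ± 0.12 (adjusted p = 0.000198).

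**Figure D4:**
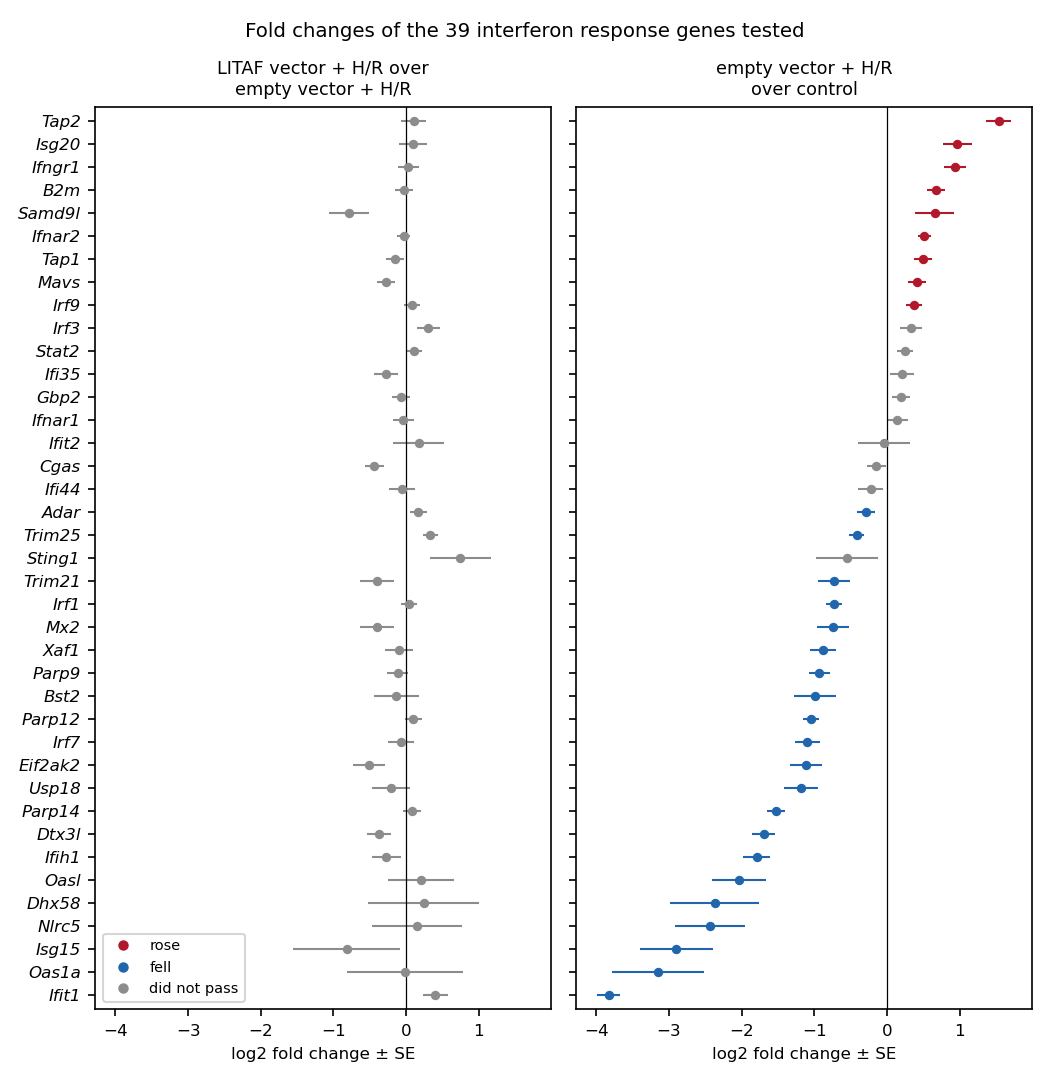
Log2 fold changes (x axis, points) with SE (bars) of the 39 interferon response genes tested, for LITAF over H/R (left) and H/R over control (right), ordered by the right panel. On the right, 9 genes are red (rose) and 21 blue (fell). On the left no point is coloured, and the points run from -0.82 (Isg15) to 0.75 (Sting1).

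The control libraries differed from the others in further ways that move with these results. Values with a decimal part made up 11.6 to 12.3% of the deposited values in the LITAF libraries and 11.1 to 12.0% in the H/R libraries, against 2.79 to 3.34% in the control libraries. How these differences in the files bear on the comparison with control was not tested. Library totals alone in place of TMM scaling gave a median log2 difference of all genes between H/R and control of 0.13, and upper-quartile scaling 0.12, against 0.01 with TMM. Gbp2, Stat2 and Irf3 were then called as higher, Adar was not called, and no other call changed. The myoblast markers, 7 of 8 in the table, summed to 523 to 590 CPM in the LITAF libraries, 512 to 644 CPM in the H/R libraries and 2209 to 6483 CPM in the control libraries. The 10 cardiomyocyte markers summed to 164 to 222 CPM in the LITAF libraries, 80.3 to 110 CPM in the H/R libraries and 208 to 447 CPM in the control libraries, with 7 of the 10 below 1 CPM in every library. The immune markers, 8 of 10 in the table, summed to 11.7 to 12.9 CPM in the LITAF libraries, 9.60 to 11.3 CPM in the H/R libraries and 13.6 to 22.6 CPM in the control libraries, with 5 of the 8 below 1 CPM in every library. Of the fibroblast markers, which summed to 27841 to 36326 CPM in the LITAF libraries, 23594 to 26768 CPM in the H/R libraries and 60276 to 76149 CPM in the control libraries, Dcn was at 0 in all. The endothelial markers summed to at most 1.48 CPM. The LITAF and H/R ranges did not overlap for the cardiomyocyte, immune and fibroblast markers. The sums hide markers that went the other way. In H/R against control, of 6 myoblast markers tested 4 fell and 1 rose, Des (1.81 ± 0.14). Of 3 cardiomyocyte markers tested 2 fell and 1 rose, Nkx2-5 (1.27 ± 0.17). Of 4 fibroblast markers tested 3 fell, of 3 immune markers 1 fell, and none of either rose, beside 31.8% of all genes in each direction. In LITAF against H/R, 2 of the 6 myoblast markers rose, Myh3 (2.15 ± 0.29) and Chrna1 (2.12 ± 0.42). So did 1 of the 3 cardiomyocyte markers, Tnnt2 (1.32 ± 0.23), and 1 of the 4 fibroblast markers, Col3a1 (0.61 ± 0.13). No immune marker rose and no tested marker fell, beside 3.73% of all genes that rose and 1.15% that fell. The part of these markers in the results was not tested.

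In the comparison of LITAF with H/R, both groups carried a lentiviral vector and went through the same H/R. None of the 39 interferon response genes rose and none fell by edgeR's quasi-likelihood test, against 3.73% and 1.15% of all genes tested. At an unadjusted p below 0.05 there were 7, against 20.0% of all genes. The median log2 difference was -0.03, against -0.01 over all genes. For 32 of the 39 genes the 95% interval of the difference lay within a 2-fold change in either direction, and the exceptions were Oas1a, Oasl, Samd9l, Dhx58, Sting1, Nlrc5 and Isg15. DESeq2 called 1 as higher, Trim25, and 2 as lower, Cgas and Samd9l. In 2 genes every LITAF library was above every H/R library, against 10.6% of all genes, and in 2 every one was below, against 8.30%.

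The smallest adjusted p belonged to Trim25, with 49.1, 41.6, 43.9 and 42.2 CPM in the LITAF libraries, 36.5, 34, 32.4 and 37.4 CPM in the H/R libraries and 51.4, 41.9, 46.7 and 47.6 CPM in the control libraries. The LITAF libraries lay above the H/R libraries and among the control libraries, a log2 difference of 0.33 ± 0.10 (adjusted p = 0.0699, and 0.0203 to 0.215 over 19 alternatives). Cgas had 11.5, 9.18, 10.5 and 9.85 CPM in the LITAF libraries, 15.8, 13.1, 12.2 and 14.6 CPM in the H/R libraries and 14.8, 13.3, 15 and 18.6 CPM in the control libraries. The LITAF libraries lay below both other groups, with -0.44 ± 0.13 against H/R (adjusted p = 0.0716, and 0.0382 to 0.22 over 19 alternatives). Next came Samd9l, with 13.5, 5.13, 10.7 and 6.74 CPM in the LITAF libraries, 16.9, 16, 19.1 and 10.2 CPM in the H/R libraries and 9.33, 14.2, 8.13 and 7.82 CPM in the control libraries. LITAF libraries 2 and 4 were below every H/R library and libraries 1 and 3 were not, and the log2 difference was -0.79 ± 0.27 (adjusted p = 0.107). Single libraries decided several of these calls. Without LITAF library 1, Cgas, Samd9l and Eif2ak2 were called as lower and Irf3 as higher, with adjusted p of 0.0389, 0.0184, 0.019 and 0.05. Without control library 2, Trim25 was called, and without control library 4, Cgas. Leaving out LITAF library 1 also moved the calls over all genes to 692 higher and 593 lower, against 425 and 131 with all libraries.

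Several of these genes varied within the LITAF group. Eif2ak2, whose values are given above, lay within the H/R range in LITAF library 1, below it in library 3 and far below it in libraries 2 and 4. Ifih1 and Samd9l had the same order, with libraries 1 and 3 above 2 and 4. That order held in 14 of the 39 genes (35.9%), against 32.5% of all genes, and the opposite order in 6 (15.4%), against 34.0%. A split of libraries 1 and 3 from 2 and 4 was thus common over all genes. Litaf itself was higher in libraries 1 and 3 than in 2 and 4, and how its level bears on these genes was not tested.

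**Figure D5:**
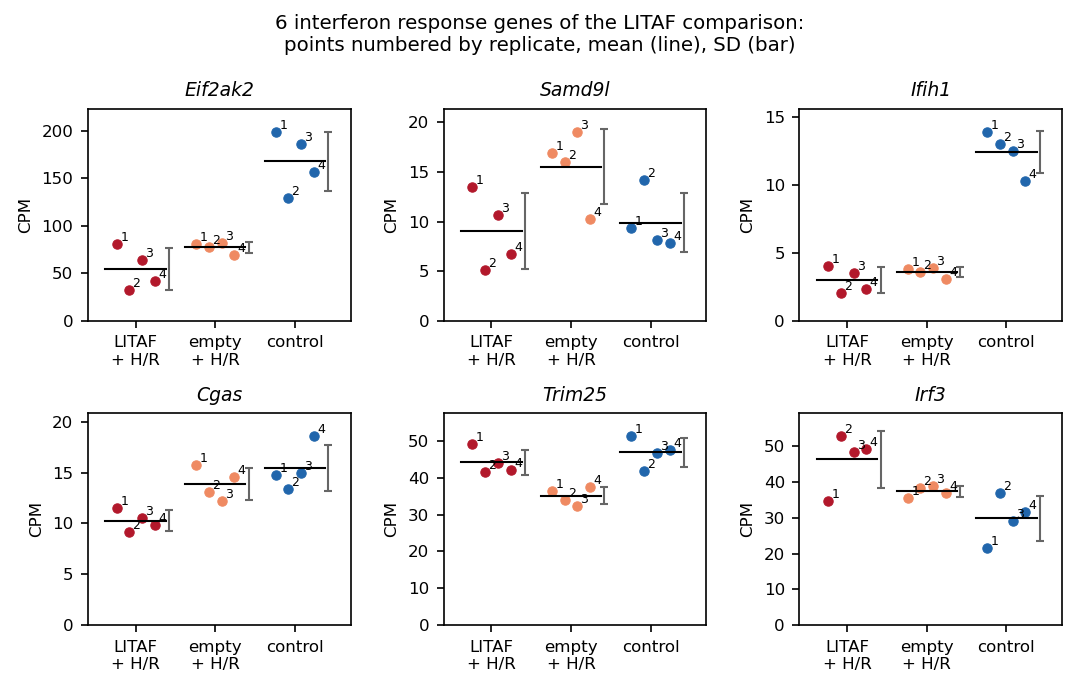
CPM (y axis) of 6 interferon response genes in the LITAF, H/R and control libraries, with points numbered by replicate, the group mean as a line and the SD as a bar. LITAF libraries 2 and 4 are below the H/R libraries for Eif2ak2 and Samd9l, as is LITAF library 3 for Eif2ak2. All 4 LITAF libraries are below the H/R libraries for Cgas and above them for Trim25.

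LITAF against control shares its control libraries with H/R against control, so the pair are given side by side and are not independent. Of the 39 genes, 20 were lower in the LITAF libraries than in control by the test, against 32.6% of all genes, and 9 rose, against 32.0%. The 20 include Dhx58, Nlrc5, Oasl and Isg15, which passed the filter only through control. Ifit1 had a log2 difference of -3.43 ± 0.15, Oas1a -3.17 ± 0.64 (-3.56 ± 0.29 without control library 2), Ifih1 -2.06 ± 0.19, Parp14 -1.45 ± 0.12, Eif2ak2 -1.62 ± 0.22 and Tap2 1.64 ± 0.18. Cgas fell (-0.59 ± 0.13, adjusted p = 0.00101), and Irf3 (0.64 ± 0.15, adjusted p = 0.00172) and Stat2 (0.36 ± 0.11, adjusted p = 0.00915) rose. Samd9l, Mavs, Trim25 and Adar did not pass, with -0.13, 0.14, -0.09 and -0.12. None of these 7 passed the test of the difference between the LITAF and H/R libraries. Tap1 rose by 0.34 ± 0.13 (adjusted p = 0.0276), a call lost without control library 1 or LITAF library 2 or 4.

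The rest of the pathway was described with gene lists that leave out the 44 genes. Of 12 interferon ligands, 2 were in the table. Ifnb1 had no count in any library except 1 count in H/R library 2, and Ifne had 7, 6, 2 and 2 counts in the LITAF libraries, 8, 5, 3 and 6 in the H/R libraries and 1, 1, 1 and 0 in the control libraries. Each LITAF and H/R library was above each control library for Ifne, at a level too low to be tested, and the other 10 ligands were not analysed here. Among receptor, JAK and STAT genes, 0 of 13 tested passed in LITAF against H/R, beside 3.73% of all genes that rose and 1.15% that fell. Of the 13, 3 had an unadjusted p below 0.05 by edgeR, beside 20.0% of all genes, and DESeq2 called 1 as lower. In H/R against control 5 of the 13 rose and 5 fell, beside 31.8% of all genes in each direction. The receptor chain Ifngr2 rose by 1.19 ± 0.13, and the kinase Tyk2 fell by 0.73 ± 0.11 and the phosphatase Ptpn11 by 0.58 ± 0.10.

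A list of other genes was taken by name as interferon-induced, and their induction by interferon was not tested here. Of its 47 genes tested, 26 fell in H/R against control, beside 31.8% of all genes tested, and 5 rose, beside 31.8%. The median log2 difference of the 47 was -0.51. With library totals alone 10 rose and 23 fell, and with upper-quartile scaling 9 rose and 25 fell. The smallest p values belonged to Herc3 (-2.09 ± 0.14), Pml (-1.76 ± 0.11), which builds nuclear bodies, Uba7 (-2.93 ± 0.21), the enzyme that activates ISG15, and Rtp4 (-1.76 ± 0.16). All 4, which were picked by p, were lower in every H/R library than in every control library, beside 28.3% of all genes tested. Between LITAF and H/R, 2 of the 47 rose, beside 3.73% of all genes, and none fell, beside 1.15%. DESeq2 called 4 as higher and 0 as lower. Leaving out single libraries gave 0 to 3 higher and 0 to 2 lower, with 0 higher without H/R library 2 or 4 or LITAF library 4 and 2 lower without LITAF library 1. Among the genes that rose, Cxcl10, a chemokine induced by interferon, had 2.1, 0.983, 1.56 and 1.27 CPM in the LITAF libraries, 0.532, 0.513, 0.960 and 0.561 CPM in the H/R libraries and 0.459, 0.667, 0.926 and 0.593 CPM in the control libraries, a log2 difference of 1.19 ± 0.32 (adjusted p = 0.0407). Every LITAF library was above every H/R library. The Cxcl10 call was lost without H/R library 1, 2 or 4 or LITAF library 1, 3 or 4, with adjusted p of 0.0588 to 0.132.

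Of 24 further genes of sensing upstream of the IRFs, 3 rose in LITAF against H/R, beside 3.73% of all genes tested, and none fell, beside 1.15%. DESeq2 called 3 higher and 1 lower, and upper-quartile scaling and both fits with a replicate block also called 1 lower. Without LITAF library 1, 4 were called lower. Traf6, a ubiquitin ligase of Toll-like receptor signalling, had 30.0, 24.2, 34.9 and 28.3 CPM in the LITAF libraries, 17.3, 16.8, 16.5 and 17.3 CPM in the H/R libraries and 11.8, 11.7, 10.8 and 12.1 CPM in the control libraries. Myd88, the adaptor of most Toll-like receptors, had 45.1, 51.6, 80.9 and 37.1 CPM in the LITAF libraries, 25.8, 23.1, 23.2 and 21.1 CPM in the H/R libraries and 36.1, 27.5, 35.2 and 28.9 CPM in the control libraries. Trim56, a ubiquitin ligase linked to STING signalling, had 125, 82.5, 96.3 and 96.3 CPM in the LITAF libraries, 66.5, 62.9, 64.7 and 66.6 CPM in the H/R libraries and 62.2, 70.0, 57.2 and 78.7 CPM in the control libraries. In all 3, which were picked as called, every LITAF library was above every H/R library, beside 10.6% of all genes tested. Their log2 differences were 0.79 ± 0.11, 1.20 ± 0.19 and 0.62 ± 0.13, with adjusted p of 0.000591, 0.00118 and 0.0105. In H/R against control, 5 of the 24 rose, beside 31.8% of all genes, and 8 fell, beside 31.8%. Those that fell include the RNA helicase Dhx9 (-2.48 ± 0.15), the dNTP hydrolase Samhd1 (-1.30 ± 0.12) and Irf5 (-1.47 ± 0.18), and Nlrx1 was among those that rose (0.93 ± 0.14). Of 12 further antigen presentation genes, none passed in LITAF against H/R, beside 3.73% of all genes that rose and 1.15% that fell. Of the 12, 1 had an unadjusted p below 0.05 by edgeR, beside 20.0% of all genes, and DESeq2 called none. In H/R against control 5 of the 12 rose and 2 fell, beside 31.8% of all genes in each direction. The chaperones Calr (1.60 ± 0.09) and Pdia3 (1.09 ± 0.13) and the immunoproteasome subunit Psmb8 (1.47 ± 0.19) rose, and the MHC class I gene RT1-N2 fell by 1.90 ± 0.37. Close relatives within the OAS, IFIT, MX and MHC class I families may share reads, and whether counting used strand is not given in the sources used here, so values within these families are uncertain.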

How the data were processed

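Polyadenylated RNA of 12 H9C2 libraries was sequenced, per the labels' protocols. Titles gave each library's group and replicate number. All replicates are labelled biological and belong to 1 batch, but separate cultures are not named, so p-values reflect library-to-library spread only, which may be technical. The values are expected counts per Ensembl gene, which the authors deposited without normalization, per the file headers, and which are not all whole numbers. DESeq2 and edgeR are named in the submitters' processing notes, without role or version. An aligner, quantifier, genome build or annotation is not given in the sources used here.

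Of 16204 rows, 128 gene IDs had several. For 56 the rows were identical and 1 was kept, and 72 with differing rows were left out. Counts were rounded to whole numbers, filtered with filterByExpr (minimum count 10), scaled by TMM and fitted over all 12 libraries with edgeR 4.0.16 (limma 3.58.1, R 4.3.3) by the quasi-likelihood F-test, two-sided, with Benjamini-Hochberg adjustment at 0.05. The procedure was tested on simulated data. DESeq2 1.42.0, other scalings, no filter, fits of 2 groups, replicate blocks and leaving out each library were tried. Depth was 16.9 to 20.7 M counts, so genes below about 1 CPM rest on fewer than 21 counts and their precision is limited by counting error.

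Libraries of H/R and control with the same replicate number deviated together (correlation of deviations 0.30 to 0.57 in the 4 pairs), so the numbers may pair these libraries. Libraries of unlike number were not compared, and the labels name no pairing. The reported fit has no block, and the blocked value is given where it changes the call of an interferon response gene. Values in every library are given for genes called in LITAF against H/R, or in H/R against control with an absolute log2 difference of at least 1. From each pathway list, up to 4 called genes with the smallest p are named. Values of some genes that the rule selects are not reported here. Genes with values outside this rule were chosen after their values were seen. The genes and lists were chosen with earlier results of these data known. Symbols missing from the table were looked up in the RefSeq gene table of GRCr8. Promoter sequences are RefSeq's.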

Additional observations from a re-analysis of the deposited data

Results flagged for a closer look

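A library is listed here where its gap to the nearest library of its own group, divided by that group's whole range of CPM, exceeded Dixon's 95% critical value for 4 libraries. This was so in 8 of 129 groups of libraries (6.2%), and chance alone gives about 1 in 20. In the LITAF libraries, Herc6 was highest in library 1, which alone had counts (ratio 1), Parp14 was lowest in library 2 (ratio 0.914) and Mavs was lowest in library 1 (ratio 0.833). In the H/R libraries, Tap2 was highest in library 4 (ratio 0.894), as was Mx1 (ratio 0.843), which had 7 counts there and 1 or 2 in the others. In the control libraries, Trim21 was highest in library 3 (ratio 0.898), Oas1a was lowest in library 2 (ratio 0.892) and Ifnar2 was highest in library 4 (ratio 0.835).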

How the results depend on the processing

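No result changed direction among those called. In H/R against control, 27 of the 30 called interferon response genes kept their call in all 19 alternatives, and Adar, Dhx58 and Samd9l did not. Of the 9 not called, Gbp2, Ifnar1, Irf3 and Stat2 were called in at least 1, Ifnar1 without control library 2 alone (log2 0.31 ± 0.13, adjusted p = 0.0467, edgeR). The counts ran from 8 to 12 higher and 20 to 24 lower when single libraries were left out. In LITAF against control, Oas1a and Tap1 lost their call in at least 1 alternative, Oas1a in the replicate block of 2 groups alone (adjusted p = 0.0983), and the counts ran from 8 to 9 higher and 20 to 23 lower.

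In LITAF against H/R, where 0 genes rose and 0 fell, DESeq2 called 1 higher and 2 lower, a fit of the 2 groups alone 1 and 1, the replicate block 1 and 2, and the replicate block in a fit of 2 groups 1 and 2. Leaving out single libraries gave 0 to 1 higher and 0 to 3 lower. The genes involved were Trim25 and Irf3 (higher) and Cgas, Samd9l and Eif2ak2 (lower). With the replicate block in edgeR, the adjusted p was 0.0485 for Trim25 (log2 0.33), 0.0432 for Cgas (-0.43) and 0.0371 for Eif2ak2 (-0.59). With the block in 2 groups, it was 0.0491 for Trim25 (0.33), 0.0452 for Cgas (-0.43) and 0.0429 for Samd9l (-0.83). Same-numbered LITAF and H/R libraries correlated by 0.05 to 0.20 in their deviations, and LITAF and control libraries by 0.05 to 0.10. Both ranges lie below the 0.30 to 0.57 of H/R and control. Over all genes, 425 rose and 131 fell in LITAF against H/R, against 320 and 205 by library totals alone, 385 and 194 by upper-quartile factors, 627 and 275 with DESeq2, 776 and 322 in the fit of 2 groups, 574 and 299 with the replicate block and 614 and 273 with the block in 2 groups. Leaving out single libraries gave 205 to 692 and 32 to 593. The cause of these differences was not tested. Library totals limit genes below 1 CPM, such as Isg15, Nlrc5 and Dhx58 in the LITAF and H/R libraries, to about 20 counts or fewer.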
